A study of Mus musculus with 15 samples.

Results

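Inversional junctions inside *Sμ* were examined, that is, joins in which the prey end lay in the donor switch region itself, where the bait was placed, and was read in the orientation opposite to the bait. They were taken from the CSR-HTGTS junction lists as prey positions from 114660000 to 114664999 on chromosome 12 (mm9), a 5-kb window that holds the bait, with prey and bait aligned to different strands. This gave 1710 inversional junctions of 13534 junctions in the window, the other 11824 being deletional, of 42200 junctions in 10 lists. CSR-HTGTS is a linear amplification-based sequencing method that starts from a primer in 5′*Sμ* and reads across the bait into whatever broken end, the prey, was joined to it. The libraries were made from genomic DNA of splenic B cells of C57BL/6 mice, cultured for 96 h with αIgD-dextran/LPS/IL4, which turns on AID and switching to IgG1. By their labels, 3 of the 10 libraries are WT, 2 are Shld1-/-, 3 are XLF-/- and 2 are Shld1-/-XLF-/-, and they are named A to C within a label. The letters follow the order of the deposit and do not number the study's repeats. The null alleles are in the germline, so that SHLD1 or XLF was missing from every cell of a mouse and not from B cells alone. The labels also carry a target locus entry, "non-coding IgH Sm-Sa deletion" under WT, an "Ia deletion" added to it under Shld1-/- and XLF-/-, and an insertion of CBEs downstream of Cg2a added to that under Shld1-/-XLF-/-. These alleles are not among those the study describes for its mice, and whether the libraries carry them was not tested. By the study's methods its mice were littermates aged 6 to 17 weeks, and groups were matched for sex and age. The ages behind single libraries are not given in the sources used here.

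The genotype of 6 libraries is in doubt. Through its number of Sγ1 junctions each library can be found in the study's figures, and there WT B is printed as Shld1-/-, WT C as XLF-/-, Shld1-/- B as WT, XLF-/- B as Shld1-/-XLF-/- and XLF-/- C as WT, while Shld1-/-XLF-/- A appears as Shld1-/-. WT A, Shld1-/- C, XLF-/- A and Shld1-/-XLF-/- C are printed under their own label. Values are therefore given library by library, ordered by printed genotype, with the tests by label and, as an alternative grouping, the tests by printed genotype. The lists held 1590 to 8531 junctions, and the *Sμ* window took 32.6% to 49.2% of the *Igh* junctions of a library. Among the 1710 inversional junctions, 0 read names recurred between libraries, and the other junctions were not compared in this way.

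Class switching starts when AID, a DNA deaminase, attacks switch regions that are being transcribed, and repair of the damaged bases leaves breaks in both strands. A break in *Sμ* can be joined to a break in a downstream switch region, which changes the isotype, or to another break in *Sμ*, which leaves IgM in place. When the bait end meets a prey end in the orientation of the chromosome, the stretch between them is lost, and when it meets the opposite end, that stretch is turned around. Joining is carried out by non-homologous end-joining, to which XLF belongs as a bridging factor, or by alternative end-joining, which leans more on short stretches of microhomology (MH). SHLD1 is a subunit of Shieldin, which acts downstream of 53BP1 and RIF1 and limits resection of the broken ends.

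The bait is the 110-nt stretch at chr12:114664800-114664909, minus strand, between the common start of the bait reads and the lowest end of the bait in the junction that most libraries shared. It is shown because its letters set which bases a prey can share with it, and its capitals mark the palindrome, of which the bait holds 1 copy at 114664842 to 114664847.
Bait, 5′ to 3′: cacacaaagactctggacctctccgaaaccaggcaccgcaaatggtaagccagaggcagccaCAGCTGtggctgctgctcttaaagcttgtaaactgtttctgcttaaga
The prey repeat is shown by 80 nt of the read at the most used inversional position of the fullest 500-bp bin, 114663187, which was used 8 times in 5 libraries. The capitals mark AGCT, the core of the AID hotspot, present 11 times.
Inverted *Sμ* repeat: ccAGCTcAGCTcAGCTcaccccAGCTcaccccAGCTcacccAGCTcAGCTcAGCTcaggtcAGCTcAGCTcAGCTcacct
The direct joins nearest to the median inversional position show how bait and inverted prey meet without shared bases, in the 4 libraries whose label is also their printed genotype. The bait is in lower case and the prey in capitals.
WT A, prey at 114663676: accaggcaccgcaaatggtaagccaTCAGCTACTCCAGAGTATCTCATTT
Shld1-/- C, prey at 114663278: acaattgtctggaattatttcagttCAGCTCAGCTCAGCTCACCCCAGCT
XLF-/- A, prey at 114663584: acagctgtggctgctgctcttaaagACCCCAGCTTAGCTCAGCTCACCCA
Shld1-/-XLF-/- C, prey at 114663258: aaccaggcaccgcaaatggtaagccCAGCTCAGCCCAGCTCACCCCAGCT
In Shld1-/- C the bait ended at 114664593, past the 110-nt stretch, and in the other 3 inside it. The junctions with the longest MH show the opposite case, and their capitals mark the bases that both alignments claim. In WT A, XLF-/- A and Shld1-/-XLF-/- C the longest MH was the same 13-bp join of prey 114664500 to bait 114664800, described below.
WT A, 13 bp: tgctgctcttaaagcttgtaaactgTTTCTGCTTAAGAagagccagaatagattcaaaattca
Shld1-/- C, 16 bp, prey at 114661362: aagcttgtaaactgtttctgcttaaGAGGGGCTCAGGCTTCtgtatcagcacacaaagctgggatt
The 16 bp of Shld1-/- C hold mismatches in an alignment, so that it is a looser match than the 13 bp of WT A.

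The strands in the lists were checked for errors by matching prey bases again. The match uses the same reads that set those strands, so it is no independent evidence of their orientation. Junctions without 1 exact match were left unchecked. The first 40 prey bases were matched to the *Igh* locus of GRCm38, a build other than that of the lists, and 816 of the 1710 inversional preys had 1 exact match, in each case on the strand opposite to the bait. Of the deletional preys, 5011 had 1 exact match and all of these lay on the strand of the bait. For the other inversional junctions, 722 had no exact match, 160 had several, 6 were shorter than 40 bases and the last 6, with a bait aligned to the plus strand, were not matched. The matched preys lay at chr12:113421796-113426594 of GRCm38, from the 5′ part of *Ighm*, which encodes the constant region of IgM, toward Ighj4. Among these 816, 771 fell in no annotated gene, 25 in an exon and 16 in an intron of *Ighm*, and the other 4 in the miRNA entries Gm24022 and Gm25747. Of these 6 with the bait on the plus strand, 4 had it elsewhere on chromosome 12, and all were kept because the strands differ.

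Inversional junctions took a small part of the *Sμ* window in the libraries printed as WT and a larger part in the other 7. In the libraries printed as WT, 62 of 1646 junctions were inversional in WT A, 183 of 2656 in Shld1-/- B and 203 of 2454 in XLF-/- C, shares of 3.77% (95% interval 2.95 to 4.80%), 6.89% (5.99 to 7.92%) and 8.27% (7.25 to 9.43%). In those printed as Shld1-/-, the share was 13.1% in WT B (137 of 1043), 14.5% in Shld1-/- C (163 of 1126) and 18.8% in Shld1-/-XLF-/- A (169 of 899). The lowest of these, with a 95% interval of 11.2 to 15.3%, lay above the highest of the libraries printed as WT. The libraries printed as XLF-/- reached 17.8% in WT C (170 of 955) and 21.8% in XLF-/- A (302 of 1383), and the pair printed as Shld1-/-XLF-/- 22.9% in XLF-/- B (211 of 921) and 24.4% in Shld1-/-XLF-/- C (110 of 451). XLF-/- A, with an interval of 19.7 to 24.1%, and XLF-/- B, with 20.3 to 25.7%, overlapped, as did WT C (15.5 to 20.4%) and Shld1-/-XLF-/- A (16.4 to 21.5%). The intervals are Wilson intervals and cover counting error only, since the reads carry no molecular identifiers.

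**Figure D1:**
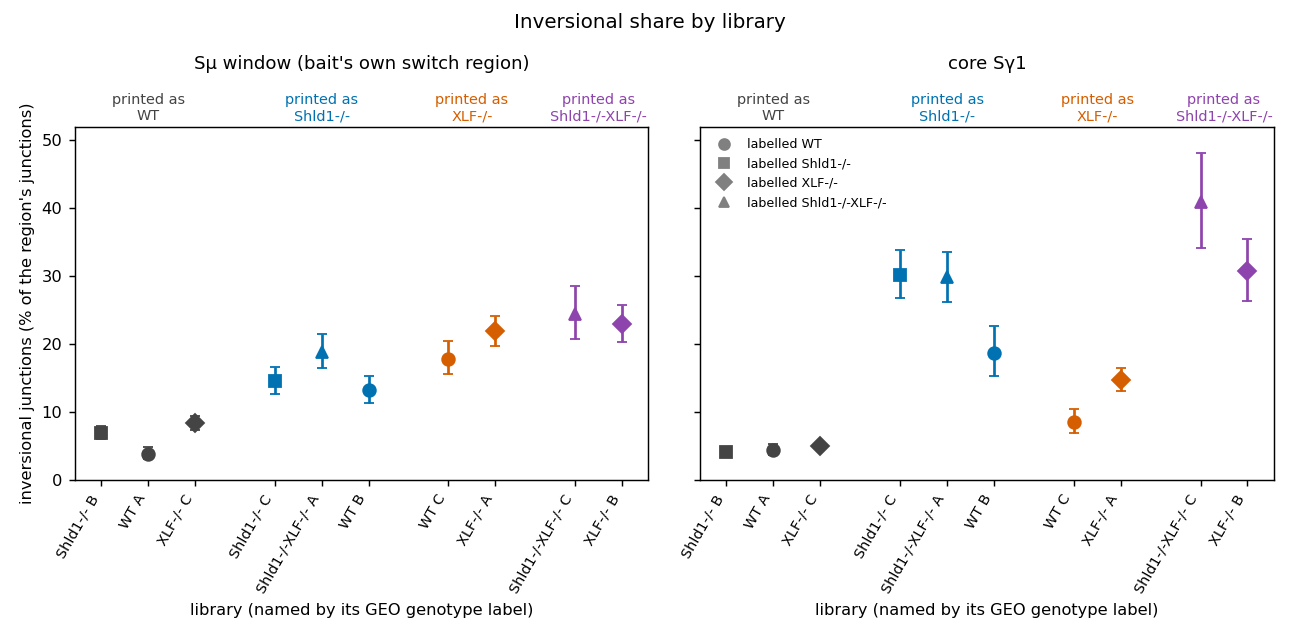
Percentage of junctions that were inversional in each library, in the *Sμ* window (left) and in core Sγ1 (right). Points are libraries, colours the printed genotype, symbols the genotype label and bars 95% Wilson intervals. In the *Sμ* window the libraries printed as WT sit between 3.77% and 8.27% and the other 7 between 13.1% and 24.4%.

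Grouped by label, the libraries labelled WT had an inversional share of 11.6 ± 7.15% (mean ± SD, 3 libraries) and those labelled Shld1-/- had 10.7 ± 5.36% (2 libraries). Under the label XLF-/- it was 17.7 ± 8.16% (3 libraries), and under Shld1-/-XLF-/- it was 21.6 ± 3.95% (2 libraries). By these labels it moved by 1.52 percentage points with SHLD1 loss, permuted among libraries of equal XLF status (exact two-sided permutation test, p = 0.70, adjusted p = 0.833 over 10 tests). With XLF loss, permuted among libraries of equal SHLD1 status, it moved by 8.51 percentage points (exact permutation test, p = 0.0833, adjusted p = 0.833). Neither passed the test. Grouped by printed genotype, the libraries printed as WT had 6.31 ± 2.31% and those printed as Shld1-/- had 15.5 ± 2.96% (mean ± SD, 3 libraries each). The 2 libraries printed as XLF-/- had 19.8 ± 2.85%, and the 2 printed as Shld1-/-XLF-/- had 23.7 ± 1.05%. In this alternative grouping SHLD1 loss raised it by 6.50 percentage points and XLF loss by 10.8 percentage points (exact permutation tests, p = 0.0167 and p = 0.01, each the smallest that the design allows, adjusted p = 0.0417 for both). SHLD1 loss came with 9.16 percentage points more in libraries printed with XLF present and with 3.83 percentage points more in those printed without XLF, and the groups did not overlap in either case. XLF loss came with 13.5 percentage points where SHLD1 was present and 8.18 where it was not, again with no overlap. Whether these pairs of differences themselves differ was not tested. The call of the printed genotypes was lost without junctions flagged for mapping quality. There SHLD1 loss gave 4.19 percentage points (exact permutation test, p = 0.10, adjusted p = 0.167) and XLF loss 7.32 (p = 0.03, adjusted p = 0.075). It was also lost in a 20-kb window, where they gave 6.96 (exact permutation test, p = 0.0333, adjusted p = 0.10) and 12.7 (p = 0.01, the smallest possible, adjusted p = 0.0833). Leaving out 1 library changed the calls as well, with p from 0.0167 to 0.0333 for both effects (exact permutation tests). The smallest p possible was then 0.0167 for SHLD1 loss and up to 0.025 for XLF loss. Adjusted p also depends on the other tests of the family. A lost call alone therefore does not show that a difference rests on the library left out. With 1 library left out, the differences stayed between 5.49 and 7.50 percentage points for SHLD1 loss and between 9.84 and 11.9 for XLF loss. Both calls held without WT B, Shld1-/- C or Shld1-/-XLF-/- A, and both were lost without any 1 of the other 7, namely WT A, WT C, Shld1-/- B, XLF-/- A, XLF-/- B, XLF-/- C and Shld1-/-XLF-/- C (exact permutation tests, adjusted p from 0.0556 to 0.0833 for SHLD1 loss and from 0.0625 to 0.0833 for XLF loss).

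As a share of *Igh* junctions, which does not depend on the deletional junctions of the window alone, inversional *Sμ* junctions ran from 1.51% in WT A to 9.49% in Shld1-/-XLF-/- C. They took 1.51% to 2.69% in the libraries printed as WT, 5.65% to 6.67% in those printed as Shld1-/-, 7.79% and 8.20% in those printed as XLF-/- and 8.70% and 9.49% in those printed as Shld1-/-XLF-/-. The order of the printed genotypes was that of the share in the window. Core Sγ1 held 2331 of 4109 *Igh* junctions in WT A and 188 of 1159 in Shld1-/-XLF-/- C, so that this share also moves with the number of Sγ1 junctions.

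The inversional share of *Sμ* stood in another order than that of core Sγ1, the acceptor region from 114569000 to 114576999. In the libraries printed as XLF-/-, the share was higher in *Sμ* than in core Sγ1, at 17.8% against 8.42% in WT C and 21.8% against 14.7% in XLF-/- A. In the 5 libraries printed with SHLD1 absent it was lower in *Sμ*, with differences from -5.54 to -16.6 percentage points. In Shld1-/- C, for example, 14.5% of *Sμ* and 30.1% of core Sγ1 junctions were inversional, and in Shld1-/-XLF-/- C 24.4% and 41.0%. Among the libraries printed as WT, the regions lay close together in WT A, with 3.77% against 4.33%. The share was higher in *Sμ* in Shld1-/- B, at 6.89% (Wilson interval 5.99 to 7.92%) against 4.0% (3.50 to 4.57%). It was also higher in *Sμ* in XLF-/- C, at 8.27% (7.25 to 9.43%) against 4.95% (4.37 to 5.60%). The contrast between *Sμ* and core Sγ1 was noticed in the values and was not tested.

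Inversional junctions were spread over *Sμ* in another way than deletional ones. Distances are given downstream from 114664909, the outer end of the bait, where downstream means toward the constant region genes. Deletional junctions were dense beside the bait, with 17.4% to 27.9% of a library's deletional junctions in the bin that holds it (114664500 to 114664999), sparse over the next 1 kb, and dense again from 1410 to 2409 bp. Inversional junctions were less sparse in the trough. The 1 kb from 410 to 1409 bp held from 22 of 110 inversional junctions in Shld1-/-XLF-/- C to 34 of 62 in WT A, and 12.3% to 21.8% of a library's deletional ones. Both 500-bp bins of that stretch held a larger part of the inversional than of the deletional junctions in 10 of 10 libraries. The bin beside the bait held a smaller part in 10 of 10. Among inversional junctions alone, both bins from 410 to 1409 bp held less than the bin beside the bait in WT B, Shld1-/- C, Shld1-/-XLF-/- A and Shld1-/-XLF-/- C. In the rest both held more. Summed over libraries, the fullest bins for inversional junctions were 114663000 to 114663499 with 365, 114662500 to 114662999 with 354 and 114663500 to 114663999 with 317, and the emptiest was the farthest, 114660000 to 114660499, with 17.

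The inversional part of a bin's own junctions showed the same unevenness. From 410 to 1409 bp it was 13.8% in WT A, 16.7% in Shld1-/- B and 18.03% in XLF-/- C, the libraries printed as WT, and 21.3% to 37.3% in the other 7. From 1410 to 2409 bp it was 2.34% to 7.40% in the libraries printed as WT and 10.4% to 40.9% in the others. It was lower from 1410 to 2409 bp than from 410 to 1409 bp in 9 of 10 libraries, Shld1-/-XLF-/- C being the exception with 40.9% against 34.4%. Beside the bait it was 1.25% to 18.1%, below the next 1 kb in 10 of 10 libraries.

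Over all inversional junctions of a library, the median distance from the bait's outer end was 1233 bp in WT A, 1401 bp in Shld1-/- B and 1347 bp in XLF-/- C, the libraries printed as WT. It was 1727 bp in WT B, 1656 bp in Shld1-/-XLF-/- A and 1530 bp in Shld1-/- C, the trio printed as Shld1-/-, and 1324 bp in WT C and 1296 bp in XLF-/- A, printed as XLF-/-. XLF-/- B, at 1828 bp, and Shld1-/-XLF-/- C, at 1620 bp, are the libraries printed as Shld1-/-XLF-/-. The 5 libraries printed without SHLD1 lay above the 5 printed with it, and those printed as XLF-/- lay among those printed as WT. Inversional junctions lay nearer to the bait than deletional junctions of the same library in 9 of 10 libraries, the medians differing by -187 ± 141 bp (SD, n = 10, exact two-sided paired permutation test, adjusted p = 0.0137 over 7 tests). The exception was XLF-/- B, with 1828 bp for inversional and 1819 bp for deletional junctions. Without junctions flagged for mapping quality the difference was -100 bp and did not pass the test (exact permutation test, adjusted p = 0.416). By label, SHLD1 loss moved the inversional median by 92.7 bp and XLF loss by 117.5 bp (exact permutation tests, p = 0.54 and p = 0.317, adjusted p = 0.833 for both). By printed genotype SHLD1 loss moved it 362 bp away from the bait (exact permutation test, p = 0.0167, the smallest possible, adjusted p = 0.0417) and XLF loss by 34.5 bp (p = 0.61, adjusted p = 0.678). That call was lost without junctions flagged for mapping quality, at 223 bp (exact permutation test, p = 0.0667, adjusted p = 0.133). It was also lost in the 20-kb window, at 210 bp (exact permutation test, p = 0.0167, the smallest possible, adjusted p = 0.0833). With 1 library left out the shift was 310 to 414 bp, with p from 0.0167 to 0.0333 (exact permutation tests). The call was lost without WT A, WT C, Shld1-/- B, XLF-/- A, XLF-/- B, XLF-/- C or Shld1-/-XLF-/- C (exact permutation tests, adjusted p from 0.0556 to 0.0833) and held without any of the other 3. Here too a lost call alone does not show that the shift rests on the library left out.

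The far part of the window, from 2910 to 4909 bp downstream of the bait's outer end, lies past the dense bins. In the libraries printed as WT it held 0 of 62 inversional junctions in WT A, which allows a share of up to 4.84%, 2 of 183 in Shld1-/- B and 0 of 203 in XLF-/- C, which allows up to 1.48%. In those printed as Shld1-/- it held 27 of 137 in WT B, 33 of 163 in Shld1-/- C and 31 of 169 in Shld1-/-XLF-/- A, which are shares of 19.7%, 20.2% and 18.3%. The libraries printed as XLF-/- had 7 of 170 in WT C (4.12%) and 7 of 302 in XLF-/- A (2.32%), and those printed as Shld1-/-XLF-/- 25 of 211 in XLF-/- B (11.8%) and 6 of 110 in Shld1-/-XLF-/- C (5.45%). The deletional junctions of the same stretch behaved otherwise. They took 2.59% to 2.90% in the libraries printed as WT, 12.9% to 17.9% in those printed as Shld1-/-, 13.6% and 16.3% in those printed as XLF-/- and 21.7% and 28.7% in those printed as Shld1-/-XLF-/-. The deletional part of the far stretch was above that of the libraries printed as WT in the other 7, whereas its inversional part was 18.3% to 20.2% in the 3 printed as Shld1-/- and lay between 2.32% and 11.8% in the 4 printed as XLF-/- or Shld1-/-XLF-/-. This stretch was chosen after the bins had been seen, and no test was made of it.

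**Figure D2:**
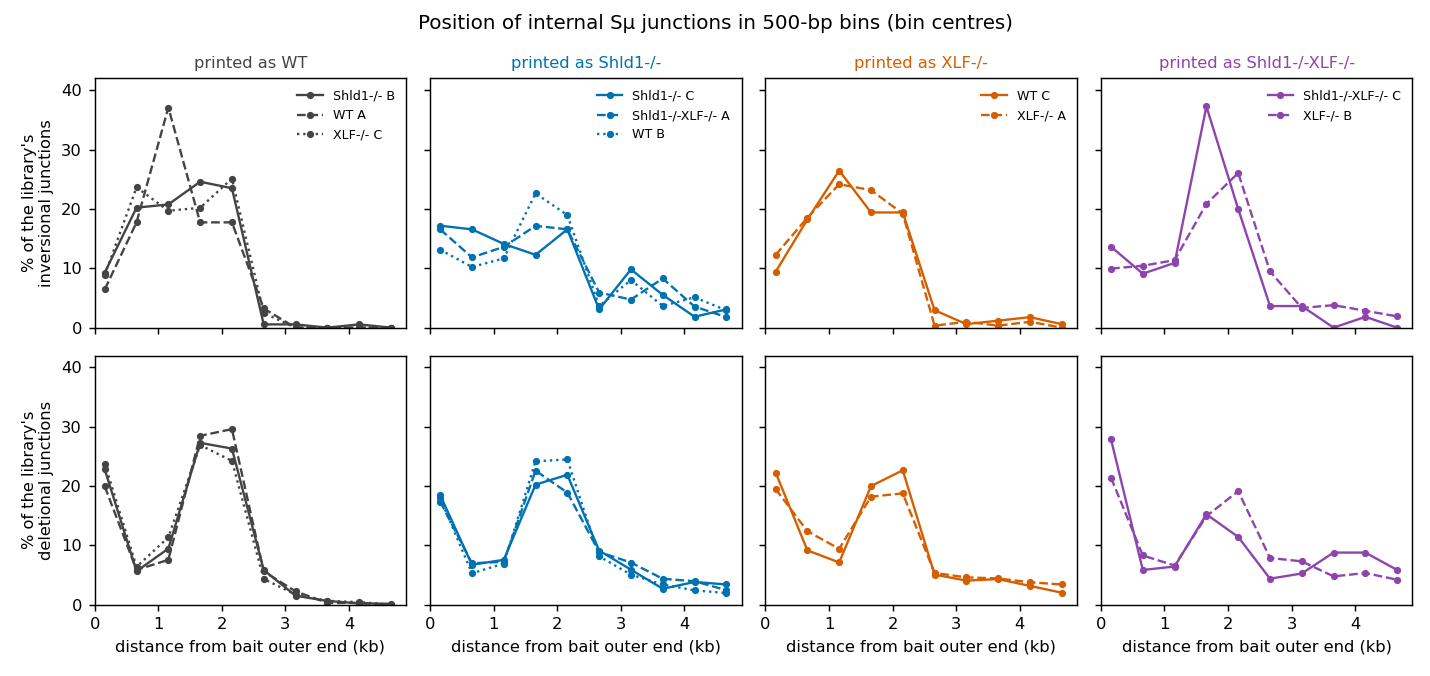
Percentage of each library's inversional (top) and deletional (bottom) internal *Sμ* junctions in 500-bp bins, against the distance of the bin centre from the bait's outer end in kb. Lines are libraries, in panels by printed genotype. Deletional junctions dip between 410 and 1409 bp. Inversional ones do not in the libraries printed as WT or XLF-/-, but fall below the bin beside the bait in WT B, Shld1-/- C, Shld1-/-XLF-/- A and Shld1-/-XLF-/- C. Inversional junctions past 2910 bp are 18.3% to 20.2% in the libraries printed as Shld1-/- and 0% to 1.09% in those printed as WT.

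The bases at the join were compared next. MH is the number of read bases claimed by both the bait and the prey alignment, a direct join has an MH of 0 bp, and a gap between the alignments is an insertion, which was left out of MH shares. Pooled over libraries, 16.2% of 1360 inversional junctions without insertion were direct, 54.3% used 1 bp to 3 bp and 29.6% an MH longer than 3 bp. The most common length was 2 bp. The 9122 deletional junctions without insertion were direct in 24.9% and used more than 3 bp in 16.9%, with 0 bp as the most common length. Pooled values weigh libraries by their size, and the libraries printed as WT hold most deletional junctions, so that the comparison was made within libraries.

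MH of more than 3 bp was more frequent among inversional junctions in the 7 libraries printed as deficient. Those printed as Shld1-/- had 37.5% against 19.2% of deletional junctions in WT B, 41.6% against 24.4% in Shld1-/- C and 30.1% against 25.5% in Shld1-/-XLF-/- A. Those printed as XLF-/- had 30.4% against 19.9% in WT C and 36.6% against 26.2% in XLF-/- A, and those printed as Shld1-/-XLF-/- 35.3% against 30.3% in XLF-/- B and 37.2% against 23.6% in Shld1-/-XLF-/- C. Of the libraries printed as WT, WT A had 4.26% against 9.83%, Shld1-/- B 9.46% against 10.6% and XLF-/- C 18.3% against 9.93%. WT A rests on 2 such junctions of 47 (95% interval 1.17 to 14.2%). Over the 10 libraries, inversional junctions had 8.13 ± 7.64 percentage points more MH of over 3 bp than deletional junctions (SD, exact two-sided paired permutation test, adjusted p = 0.0365, higher in 8 of 10). The excess stayed at 7.0 to 9.66 percentage points with 1 library left out, but the adjusted p passed 0.05, reaching 0.0729 at most, when any library other than WT A or Shld1-/- B was left out. It also passed 0.05 in the 20-kb window, where the excess was 4.95 percentage points (exact permutation test, adjusted p = 0.0729).

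Direct joins were fewer among inversional junctions in 7 of 10 libraries, with a mean difference of -4.05 ± 5.35 percentage points (SD, n = 10, exact two-sided paired permutation test, p = 0.0391, adjusted p = 0.0684), which did not pass the test after adjustment. The share of direct joins was 25.5% in WT A, 37.8% in Shld1-/- B and 30.7% in XLF-/- C, the libraries printed as WT. It was 5.36% in WT B, 15 of 125 in Shld1-/- C and 13.3% in Shld1-/-XLF-/- A, 10.9% in WT C and 12.6% in XLF-/- A, and 7.06% in XLF-/- B and 9.30% in Shld1-/-XLF-/- C. The 3 libraries printed as WT lay above the other 7. The deletional junctions of WT B had 19.9% direct joins against its 5.36%, the widest gap of the 10 libraries.

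**Figure D3:**
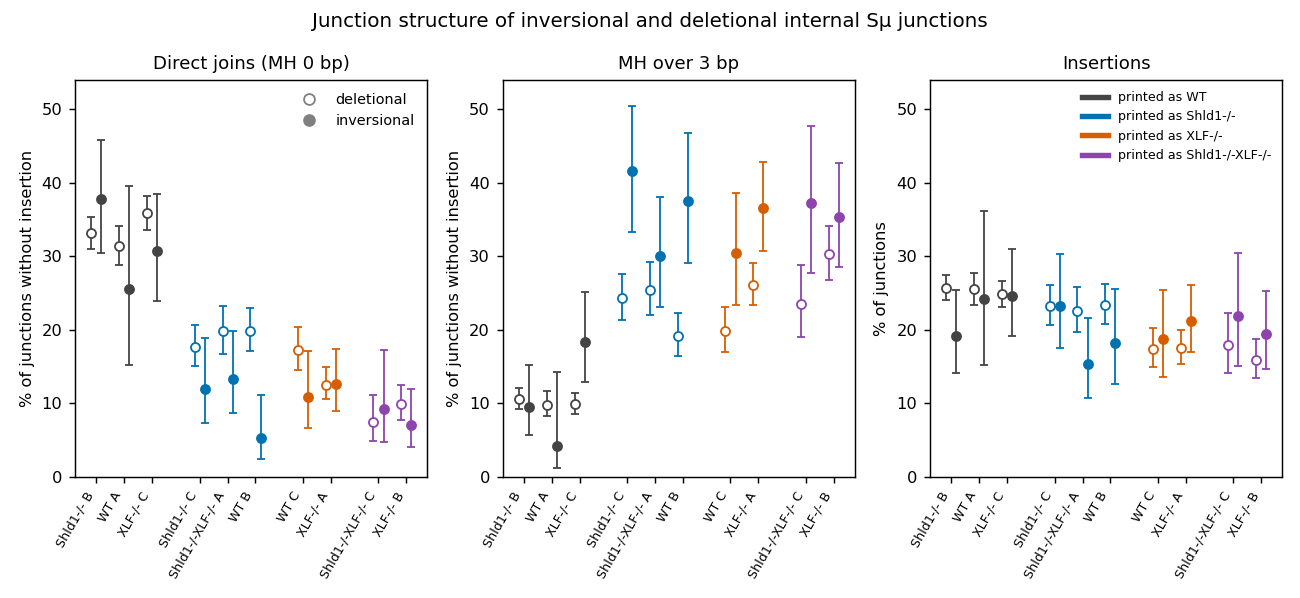
Direct joins and joins with MH over 3 bp, as percentages of junctions without insertion, and insertions as a percentage of junctions, for deletional (open) and inversional (filled) internal *Sμ* junctions of each library. Colours are printed genotypes and bars 95% Wilson intervals. MH over 3 bp is higher among inversional junctions in 8 of 10 libraries, the exceptions being WT A and Shld1-/- B.

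By label, SHLD1 loss moved direct joins among inversional junctions by 2.75 percentage points and XLF loss by -5.37 (exact permutation tests, p = 0.71 and p = 0.667, adjusted p = 0.833 for both). MH of over 3 bp moved by 2.53 and 7.05 percentage points (exact permutation tests, p = 0.75 and p = 0.50, adjusted p = 0.833 for both). By printed genotype, direct joins fell by 12.4 percentage points with SHLD1 loss (exact permutation test, p = 0.0167, the smallest possible, adjusted p = 0.0417). With XLF loss they were lower by a difference of -10.8 percentage points that did not pass after adjustment (exact permutation test, p = 0.04, adjusted p = 0.0667). MH of over 3 bp stood 14.2 percentage points higher with SHLD1 loss and 11.3 higher with XLF loss, and neither passed (exact permutation tests, p = 0.0333 and p = 0.09, adjusted p = 0.0667 and 0.129). Direct joins averaged 31.4% in the libraries printed as WT, 10.2% in those printed as Shld1-/-, 11.7% in those printed as XLF-/- and 8.18% in those printed as Shld1-/-XLF-/-, and MH of over 3 bp averaged 10.7%, 36.4%, 33.5% and 36.3%. Between Shld1-/- and Shld1-/-XLF-/- the libraries overlapped in both measures. The effects by printed genotype average unlike strata. With SHLD1 loss direct joins moved by -21.1 percentage points where XLF was present and by -3.56 where it was not. MH of over 3 bp then moved by 25.7 and 2.76. With XLF loss direct joins moved by -19.6 where SHLD1 was present and by -2.03 where it was not. MH of over 3 bp then moved by 22.8 and -0.14. Whether the differences depend on the other gene was not tested. The call on direct joins was lost without junctions flagged for mapping quality (-11.3 percentage points, exact permutation test, p = 0.0167, the smallest possible, adjusted p = 0.0556). It was also lost in the 20-kb window (-11.1, exact permutation test, p = 0.05, adjusted p = 0.10). With 1 library left out the difference was -13.8 to -10.7 percentage points, with p from 0.0167 to 0.0333 (exact permutation tests). Again a lost call alone does not show that the difference rests on the library left out. The call held without WT B, Shld1-/- C or Shld1-/-XLF-/- A and was lost without WT A, WT C, Shld1-/- B, XLF-/- A, XLF-/- B, XLF-/- C or Shld1-/-XLF-/- C (exact permutation tests, adjusted p from 0.0556 to 0.0833).

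Single lengths showed where the shift lay. An MH of 1 bp was less common among inversional junctions in 8 of 10 libraries, with a median over libraries of 10.5% against 17.4%. An MH of 4 bp was more common in 9 of 10 libraries, with 16.1% against 9.43%, and the exception was WT A. In Shld1-/- C, 31 of 125 inversional junctions without insertion had exactly 4 bp, and in XLF-/- A 43 of 238. At 2 bp and 3 bp the medians lay closer, at 24.1% against 21.3% and 19.6% against 20.3%. Even so, 3 bp was less common among inversional junctions in 8 of 10 libraries. A direct join (0 bp) was less common in 7 of 10, and 5 bp was more common in 7 of 10. No test was made of single lengths.

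**Figure D4:**
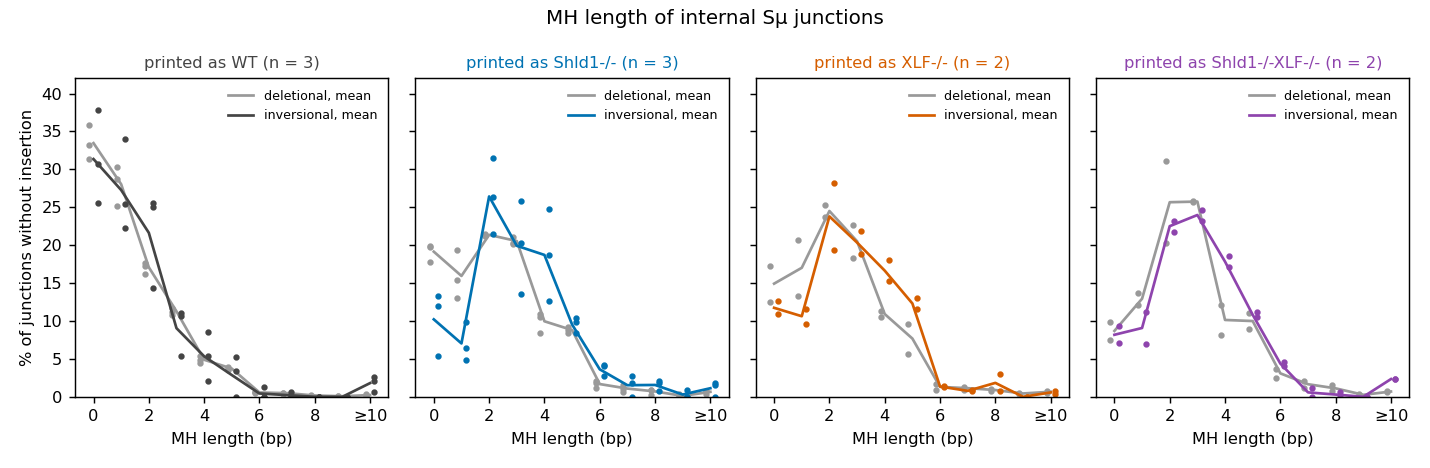
Percentage of junctions without insertion at each MH length in bp, with lengths of 10 bp and over combined, for deletional (grey) and inversional (coloured) internal *Sμ* junctions. Dots are libraries and lines their means, in panels by printed genotype. In all panels the inversional line lies below the deletional line at 1 bp and above it at 4 bp, with the smallest gaps in the panel printed as WT.

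The bases shared at longer MH differed between the orientations. Of the 402 inversional junctions with MH of more than 3 bp, 76 shared CAGCT, in 9 libraries, and 0 shared AGCTG. Of the 1545 deletional junctions of that kind, 237 shared AGCTG, in 10 libraries, and 7 shared CAGCT. Both words lie in the palindrome of the bait printed above. They are reverse complements of each other, so that the strand that sets the orientation also bears on which of them a repeat offers. The split was not tested. CCAG, AGCT and CAGC, the next most frequent among inversional junctions, were shared by 46, 32 and 31. The most common bait ends lay at the last bases of these words. For inversional junctions it was 114664843, with 132 of 1710 junctions, and for deletional junctions its neighbour 114664842, with 500 of 11824. The end at 114664843 was a larger part of the inversional than of the deletional junctions in 10 of 10 libraries, from 1.61% of inversional junctions in WT A to 12.9% in XLF-/- A. The overlap was free of mismatches and gaps in both alignments in 365 of the 402 inversional and 1287 of the 1545 deletional junctions, shares of 90.8% and 83.3%.

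Insertions were more frequent among inversional *Sμ* junctions than among inversional core Sγ1 junctions, and a difference from deletional *Sμ* junctions did not pass the test. They made up 15.4% to 24.6% of a library's inversional *Sμ* junctions, with a median length of 3 bp and a longest insertion of 35 bp, in XLF-/- B. The difference from deletional *Sμ* junctions was -0.80 ± 4.23 percentage points (SD, n = 10, exact two-sided paired permutation test, adjusted p = 0.564, higher in 5 of 10). Against inversional core Sγ1 junctions of the same library it was 8.0 ± 4.83 percentage points (SD, n = 10, exact paired permutation test, adjusted p = 0.0137, higher in 9 of 10), with 23.3% against 8.99% in Shld1-/- C and 21.2% against 12.5% in XLF-/- A. Shld1-/-XLF-/- A was the exception, with 15.4% against 18.2%. The difference from core Sγ1 was 5.98 percentage points without junctions flagged for mapping quality (exact permutation test, adjusted p = 0.0684). Direct joins and MH of over 3 bp stood 1.56 and 3.07 percentage points higher than among inversional core Sγ1 junctions, and neither difference passed (exact paired permutation tests, adjusted p = 0.284 and 0.381). By label, insertions moved by -1.18 percentage points with SHLD1 loss and by -0.64 with XLF loss (exact permutation tests, adjusted p = 0.833 for both), and by printed genotype by -1.53 and -0.50 (exact permutation tests, adjusted p = 0.521 and 0.80).

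Prey positions recurred between libraries more often than whole junctions, which is partly built in, since a shared junction also shares its prey position. Of 1129 distinct prey positions, 289 were found in more than 1 library. The 1710 junctions fell on 1542 pairs of prey position and bait end, of which 48 were found in more than 1 library and 4 in more than 2. The most widely shared pair joined prey 114664500 to bait 114664800, 300 bp apart, in 11 reads of 8 libraries, with 0 in WT C and Shld1-/-XLF-/- A and at most 2 in any library. It used the 13 bp TTTCTGCTTAAGA, printed above in its context, and these bases occur in GRCm38 as an inverted repeat, on the plus strand at chr12:113426289-113426301 and on the minus strand at chr12:113426589-113426601. None of the 11 was flagged for mapping quality or as a duplicate, and 0 deletional junctions lay at that prey position. Leaving it out lowered the excess of MH over 3 bp over deletional junctions to 7.38 percentage points (exact permutation test, adjusted p = 0.0501). The next most shared pairs were found in 3 libraries, among them prey 114663078 with bait 114664843, which used 5 bp.

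The prey sequence next to the join was read for switch repeat words, on both strands of the 50 prey bases. AGCT was found in 63.9% to 76.6% of a library's inversional preys (median 70.9%) and at a median of 70.0% in deletional preys. Among all 50-base windows of the matched GRCm38 stretch, 56.7% held it. GAGCT, which contains AGCT, had medians of 63.7% and 62.8% and GGGGT 48.9% and 46.9%, with 48.1% and 33.7% of all windows. The inversional share was the higher in 6, 4 and 5 of 10 libraries for the 3 words. These are counts of letters and no test was made of them.

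The flags of the authors' pipeline touched both orientations. Of inversional junctions, 615 of 1710 were flagged for mapping quality, 26.4% to 46.4% of a library's, and 93 as duplicates, 1.84% to 9.0%. Of deletional junctions, 4775 of 11824 were flagged for mapping quality. Flagged inversional junctions were 29.0% in WT A and 46.4% in Shld1-/-XLF-/- C, whereas flagged deletional junctions were 50.1% and 23.5% in the same libraries, so that leaving them out raises the inversional share of WT A and lowers that of Shld1-/-XLF-/- C. Their part in the differences between libraries is given by the values without them, above.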

How the data were processed

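The CSR-HTGTS lists of 10 libraries from C57BL/6 mice were used, all with the 5′*Sμ* bait. The lists of 2 further libraries, which hold MH lengths only, and of 3 libraries of strain 129s were not analysed here. Per the submitters' processing notes, reads were aligned with Bowtie2 to mm9. The authors deposited 1 row per junction with coordinates, strands, read positions and flags, which are not normalized, so that depth is the number of junctions. Flagged rows were kept. Junctions in the window were counted here, MH was computed as the bait's last aligned base on the read minus the prey's first plus 1, and shares were taken per library with 95% Wilson intervals (counting error only).

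Libraries were grouped by label, and each was counted as 1 mouse. Genotype effects were tested on 5 measures by exact permutation within strata of the other gene (10 tests), and orientations or regions by exact sign flips over libraries (7 tests), with Benjamini-Hochberg adjustment within each family. A share at 0 allows up to 3 junctions. Alternatives were the printed genotype, duplicates or mapping-quality flags left out, repeats counted once, a 20-kb window, junctions within 200 bp of the bait's outer end left out, insertions in the denominator and each library left out. Leaving out mismatched overlaps or the widely shared junction was added after seeing the data. No genes were tested. Every library is named, with the fullest and emptiest bins, and junction sequences are the longest MH and the direct join nearest the median in libraries with 1 genotype. The members and comparisons were chosen with earlier results of these data known. Python 3.11.15, numpy 2.4.6, pandas 2.3.3, scipy 1.17.1 and matplotlib 3.10.9 were used, and the counting and tests were tested on simulated data.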

Additional observations from a re-analysis of the deposited data

How the results depend on the processing

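Of 137 values recomputed under other settings than leaving out a library, 119 kept their direction and their side of the threshold. Most of the 137 were genotype effects, which by label all had an adjusted p of 0.833 (exact permutation tests), so that keeping their side says little. Under the printed genotypes, SHLD1 loss raised the inversional share by 6.50 percentage points, XLF loss raised it by 10.8 and SHLD1 loss moved the median by 362 bp, all now past the threshold, and the effect of SHLD1 loss on direct joins turned to -12.4 percentage points. Without junctions flagged for mapping quality, the label effect of SHLD1 loss on the median turned to -7 bp, the difference of insertions from deletional junctions turned to 1.81 and that of direct joins from core Sγ1 to -0.42, while the excess of MH over 3 bp (6.37), the median position (-100.25 bp) and the insertions against core Sγ1 (5.98) fell short of the threshold. In the 20-kb window, the label effect of XLF loss on the median turned to -9.29 bp, the insertions turned to 0.27 and MH over 3 bp (4.95) fell short, as it did without junctions beside the bait (7.26) and without the widely shared junction (7.38). Direct joins against deletional junctions passed the threshold without duplicates (-4.37), with repeats counted once (-4.55) and without mismatched overlaps (-4.34). The cause of these changes was not tested.

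With each library left out in turn, label effects of SHLD1 loss ran from -0.83 to 3.41 percentage points for the inversional share, -3.71 to 9.21 for direct joins, -5.51 to 10.6 for MH over 3 bp and -2.78 to 0.43 for insertions, and from 44.0 to 177 bp for the median. Those of XLF loss ran from 6.56 to 10.9, -11.8 to 1.08, -0.99 to 15.1, -2.25 to 0.96 and 33.1 to 192 bp. Against deletional junctions, direct joins ran from -5.02 (without Shld1-/- B, adjusted p = 0.0273 by exact permutation) to -2.89, MH over 3 bp from 7.0 to 9.66, insertions from -1.33 to -0.09 and the median from -209 to -160 bp. Against core Sγ1, direct joins ran from 1.02 to 2.46 (without WT C, adjusted p = 0.0456 by exact permutation), MH over 3 bp from 1.14 to 4.38 and insertions from 7.30 to 9.20. No analysis that pairs libraries across genotypes was possible, because the labels give no replicate numbers that the genotypes share, and the order of the deposit does not pair libraries.

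The 62 inversional junctions of WT A limit its shares most, and with 2 or 3 libraries in a group the smallest p is 0.01 or 0.0167. The grouping by printed genotype rests on junction counts read from figures and not on the labels.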
